A study of Rattus norvegicus with 8 samples.

Results

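The genes described here carry sodium, potassium, chloride, bicarbonate and protons across the tubule of the kidney, or set the activity of the proteins that do. The group is a list of 36 rat genes, chosen by function and by a rule that uses no difference between males and females. A gene was read through the probe, a short oligonucleotide on the array, whose RefSeq accession named it, and the brightest probe was taken where a gene had several. Of the 36 genes, 32 had a named probe, among 14737 genes with one on the array, and for 31 the array software rated the probe well above background in 4 rats or more. In each of these 31 cases that probe was well above background on all 8 arrays. No named probe was found for *Slc12a1* (the Na+-K+-2Cl- cotransporter of the thick ascending limb), *Klhl3*, *Nedd4l* and *Fxyd4*. The probe of *Kcnj10*, a basolateral potassium channel of the distal convoluted tubule, was well above background on 3 arrays, 2 of males and 1 of a female, and was not tested.

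Gene expression was compared between 4 male and 4 female adult, untreated rats of the Han Wistar strain RCCHanTMWIST. From each rat, total RNA of cortical kidney slices was labelled with Cy3 and hybridized to 1 one-colour Agilent array, so that each value stands for 1 animal. A slice of the cortex holds a mixture of cell types, among them those of the glomerulus, the cortical tubule segments and the cortical collecting duct. No cell type was isolated. Values are log2 signals relative to the 75th percentile of the signals of the same array, so that 0 is that percentile, and log2 fold-changes are given as male minus female, with 1 for a 2-fold higher signal in males. Signals of different probes are not comparable as amounts of mRNA, and no gene was set against another by its level.

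The 75th percentile was 5025 to 5944 in females and 5685 to 6547 in males, 78.9% to 83.3% of the spots of a female and 79.0% to 82.9% of those of a male exceeded background clearly, and none was saturated. The arrays shared 1 slide, and each of its rows carried 2 males and 2 females. Defining markers of the cortex were detected in every rat: of the markers of the proximal tubule (6 of 6), the glomerulus (5 of 5) and the thick ascending limb (4 of 4 with a probe), each was well above background on all 8 arrays. *Pvalb*, a marker of the early distal convoluted tubule, and *Slc14a2*, the urea transporter of the inner medulla, were well above background on no array. The other listed markers of the inner medulla (*Slc5a3*, *Akr1b1* and *Slc6a12*) were well above background on all 8 arrays. So were *Slc12a3* and *Calb1* of the distal convoluted tubule.

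The tubule reabsorbs most of the filtered salt step by step. In the proximal tubule, Na+/H+ exchange and Na+-bicarbonate cotransport recover sodium and bicarbonate. In the thick ascending limb, salt enters by the Na+-K+-2Cl- cotransporter, potassium returns to the lumen by ROMK, chloride leaves by basolateral channels with their subunit barttin, and calcium and magnesium pass between the cells through claudins. The distal convoluted tubule takes up salt by the thiazide-sensitive cotransporter under control of the WNK kinases. In the collecting duct, principal cells take up sodium by the epithelial sodium channel ENaC, and intercalated cells secrete acid or bicarbonate. The sexes are known to differ in how salt reabsorption is spread along the rat nephron.

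Promoter sequences are shown for 3 genes of the thick ascending limb whose signals were higher in every female than in every male. The sequences are the 250 bases before the start of the gene, 5′ to 3′ in the direction of the gene, from RefSeq on build GRCr8. Capitals mark AGAACA or its reverse complement TGTTCT, the half-site of the androgen response element, and, in *Umod*, TATAAA, the letters of a TATA box.
Bsnd (chr5:126489390-126489639, minus strand): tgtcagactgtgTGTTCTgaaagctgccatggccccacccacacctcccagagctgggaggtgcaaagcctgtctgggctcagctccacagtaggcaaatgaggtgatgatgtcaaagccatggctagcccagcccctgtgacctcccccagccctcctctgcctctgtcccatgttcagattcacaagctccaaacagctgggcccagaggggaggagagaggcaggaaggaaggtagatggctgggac
Cldn16 (chr11:87814397-87814646, minus strand): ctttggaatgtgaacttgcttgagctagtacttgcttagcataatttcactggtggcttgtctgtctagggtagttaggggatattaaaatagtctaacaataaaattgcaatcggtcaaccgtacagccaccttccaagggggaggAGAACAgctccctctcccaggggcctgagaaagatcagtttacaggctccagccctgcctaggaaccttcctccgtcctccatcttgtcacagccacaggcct
Umod (chr1:183261017-183261266, minus strand): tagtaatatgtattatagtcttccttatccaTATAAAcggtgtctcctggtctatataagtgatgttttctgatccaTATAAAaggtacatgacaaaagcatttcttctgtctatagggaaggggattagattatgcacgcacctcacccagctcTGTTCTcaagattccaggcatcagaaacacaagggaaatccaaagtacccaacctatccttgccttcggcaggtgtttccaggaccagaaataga
*Bsnd* held the half-site once, from -238 to -233 of the start of the gene, *Cldn16* from -103 to -98, and *Umod* from -95 to -90. *Umod* also held TATAAA from -219 to -214 and from -173 to -168, both farther upstream than the usual place of a TATA box. Both strands were searched. Over the 33469 rat promoters of the same length in the table, 17.5% held the half-site. Of the 36 genes, 29 had a promoter in the table (34 promoters, because some genes have several). The half-site was in 5 of these 34 promoters. Counted by gene, 4 of the 29 genes (13.8%) held it in at least 1 promoter: the 3 genes shown and *Kcnj1*. All 4 belong to the thick ascending limb, for which 6 genes had a promoter. That these 4 genes lie in 1 segment was noticed after the search, and a match describes the letters only. The full androgen response element (AGAACA and TGTTCT 3 bases apart), which contains the half-site, occurred in 0.012% of all promoters and in 0 of the 34. The full estrogen response element (GGTCA and TGACC 3 bases apart) occurred in 0.0239% and in 0 of the 34, and the BCL6 core TTCCTNGAA in 1.47% and in 0 of the 34. GTTAAT, the half-site of the HNF1 element, occurred in 6.45% of all promoters and in those of *Cldn10* and *Slc8a1*. TATAAA occurred in 12.9% of all promoters and in those of *Kcnj1*, *Sgk1*, *Slc12a3* and *Umod*.

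Of the 31 genes tested, 3 differed between the sexes at an adjusted p below 0.05 (limma, Benjamini-Hochberg adjustment over the 23425 probes tested), and all 3 were higher in females: *Bsnd*, *Cldn16* and *Slc9a2*. This is 9.68% of the 31, whereas 8.06% of all probes tested were called in either direction (3.39% higher in males and 4.67% higher in females). None of the 31 was called higher in males. At an unadjusted p below 0.05, 9 of the 31 passed (29.0%, against 25.6% of all probes), 2 higher in males and 7 higher in females. No gene of the group also reached a 2-fold difference, the second threshold of the study's methods, which 1.89% of all probes passed with the adjusted p. The log2 fold-change was above 0 for 12 genes and below 0 for 19 (61.3%), while it was below 0 for 58.4% of all probes. The median log2 fold-change was -0.14 over the 31 genes and -0.04 over all probes. With quantile normalization in place of the 75th percentile, the split was 14 genes above 0 and 17 below 0, with a median of -0.11, and the share of males among the calls over all probes went from 42.1% to 54.5%.

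The differences were small. The 95% confidence interval of the log2 fold-change lay within 2-fold in either direction for 29 of the 31 genes (93.5%), compared with 89.4% of all probes. The exceptions were *Cldn19* and *Sgk1*. For 20 of the 31 genes (64.5%), and for 69.7% of all probes, the log2 fold-change was smaller than 0.25 in size. The values of the sexes did not overlap for 9 genes (29.0%), of which 7 (22.6%) were higher in females and 2 (6.45%) higher in males. Over all probes, 18.5% did not overlap, 11.0% with the females above and 7.47% with the males above. The plot groups the log2 fold-changes by the segment or pathway in which each gene is best known. RNA of whole cortex does not show in which segment a difference arose.

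**Figure D1:**
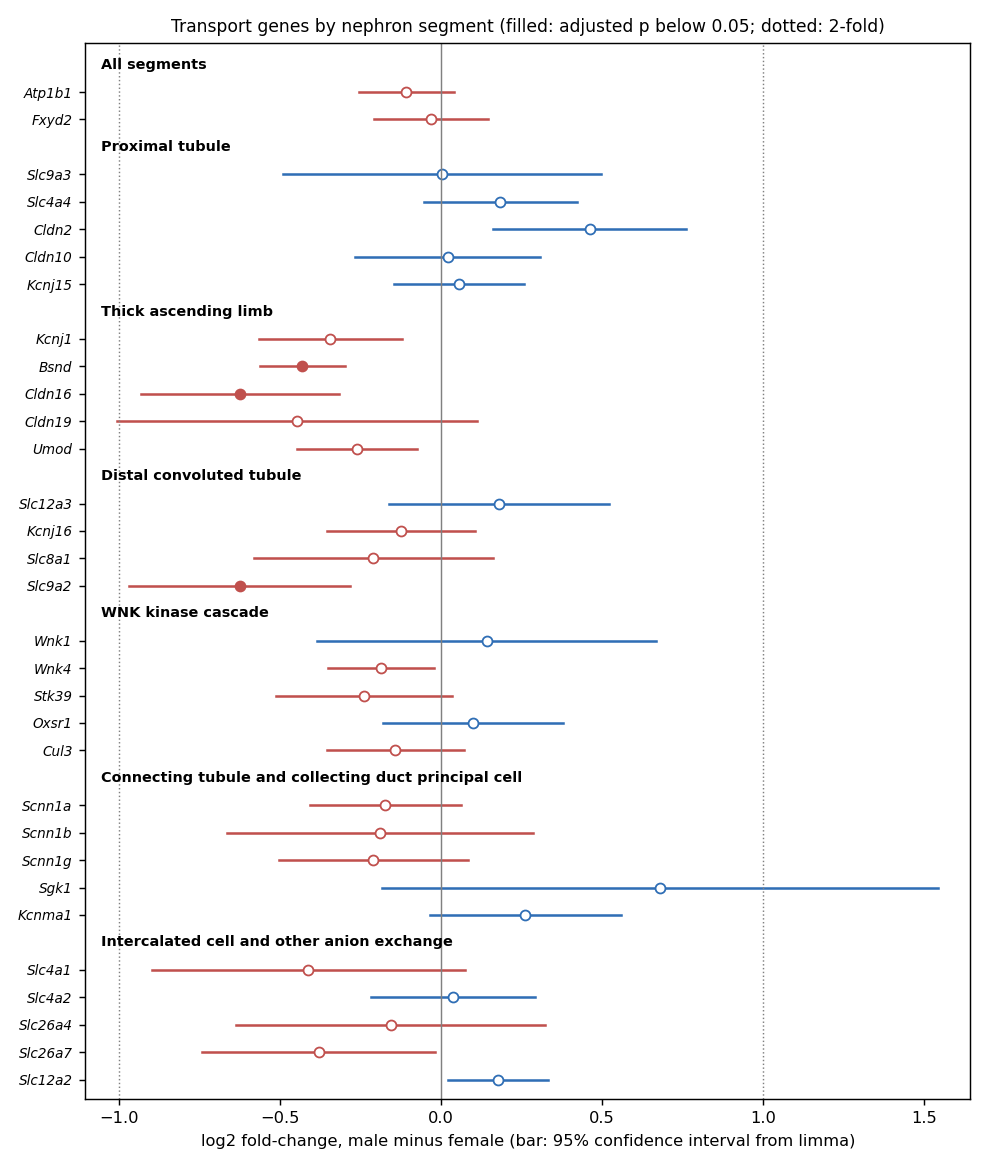
Log2 fold-change, male minus female, of the 31 genes tested, grouped by the nephron segment or pathway in which the gene is best known. Points are the limma estimates, bars the 95% confidence intervals (4 males and 4 females), filled points have an adjusted p below 0.05, red lies below 0 (higher in females) and blue above 0 (higher in males). The 5 genes of the thick ascending limb all lie below 0, between -0.62 and -0.26.

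In the thick ascending limb, all 5 genes tested had a lower mean in males, and for 4 of them every female exceeded every male. Over all probes, 58.4% had a log2 fold-change below 0, and for 11% every female exceeded every male. *Bsnd*, which encodes barttin, a subunit that brings chloride channels to the basolateral membrane, was the clearest case. The signal of *Bsnd* was 1.20, 1.26, 1.19 and 1.27 in females 1 to 4 and 0.82, 0.76, 0.80 and 0.80 in males 1 to 4. The values within each sex lay close together, and the gap between the sexes was far wider than their spread. The signal was 25.9% lower in males (log2 fold-change -0.43, SE 0.058, 95% confidence interval -0.56 to -0.30, adjusted p = 0.00452), and this difference held in each of 18 alternative analyses, at -0.44 to -0.42 with adjusted p between 0.00106 and 0.0365. Within the rows of the slide the difference was -0.41 and -0.45.

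*Cldn16* encodes claudin-16, which with claudin-19 forms the paracellular pathway for magnesium and calcium. *Cldn16* read -2.02, -2.07, -2.12 and -1.97 in females 1 to 4 and -2.46, -2.84, -2.97 and -2.40 in males 1 to 4. The females were nearly alike, and the males were spread over a wider range below them. The signal was 35.1% lower in males (log2 fold-change -0.62, SE 0.13, 95% confidence interval -0.93 to -0.32, adjusted p = 0.0287). The difference was -0.38 in the first and -0.87 in the second row of the slide. It stayed below 0 in all 18 alternatives but passed the adjusted threshold in 11 of them (adjusted p 0.0158 to 0.0774). The call was lost when any 1 of the 4 females was left out (0.0597 to 0.0709), and without male 2 (0.0774) or male 3 (0.0516). *Cldn19*, the partner, had overlapping values. In females 1 to 4 *Cldn19* was at 1.96, 1.98, 1.46 and 2.32, and in males 1 to 4 at 1.91, 1.58, 1.58 and 0.87. Female 3 lay among the males, male 1 lay among the females, and male 4 lay below all other rats. The log2 fold-change was -0.45 (SE 0.24, 95% confidence interval -1.01 to 0.11, adjusted p = 0.291), and at the second probe of the gene it was -0.15 (adjusted p = 0.68).

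*Kcnj1* encodes ROMK, the luminal potassium channel of the thick ascending limb and the principal cell. For *Kcnj1*, females 1 to 4 gave 0.71, 0.56, 0.63 and 0.88 and males 1 to 4 gave 0.18, 0.33, 0.42 and 0.48. No male reached the lowest female. The signal was 21.2% lower in males, which did not pass the adjusted threshold (log2 fold-change -0.34, SE 0.097, 95% confidence interval -0.57 to -0.12, adjusted p = 0.0683). At the second probe the log2 fold-change was -0.37 (adjusted p = 0.11), with overlapping values. *Umod* encodes uromodulin, the most abundant protein of normal urine, which the thick ascending limb secretes. The signal of *Umod* was 5.83, 5.99, 5.99 and 5.80 in females 1 to 4 and 5.59, 5.69, 5.52 and 5.75 in males 1 to 4. The highest male lay just below the lowest female. The difference of -0.26 did not pass the adjusted threshold (SE 0.081, 95% confidence interval -0.45 to -0.077, adjusted p = 0.088), and was -0.16 with quantile normalization (adjusted p = 0.142). Both genes passed in 1 of 18 alternatives, the fit with an intensity trend and a robust prior, and their adjusted p ranged from 0.0384 to 0.141 for *Kcnj1* and from 0.042 to 0.196 for *Umod*. For each of the 4 non-overlapping genes the exact two-sided permutation test gave p = 0.0286, the smallest value that the 70 assignments of 4 and 4 rats allow. Any gene without overlap receives this value, here and below, so it adds nothing to the lack of overlap. It is not adjusted for the number of genes. Over the 5 genes and 18 alternatives, each of the 90 log2 fold-changes was below 0, from -0.71 to -0.16. Part of this was fixed in advance. The detection filters, the intensity trend and the blocks leave the log2 fold-change unchanged in this balanced design. All other alternatives reuse the same rats.

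**Figure D2:**
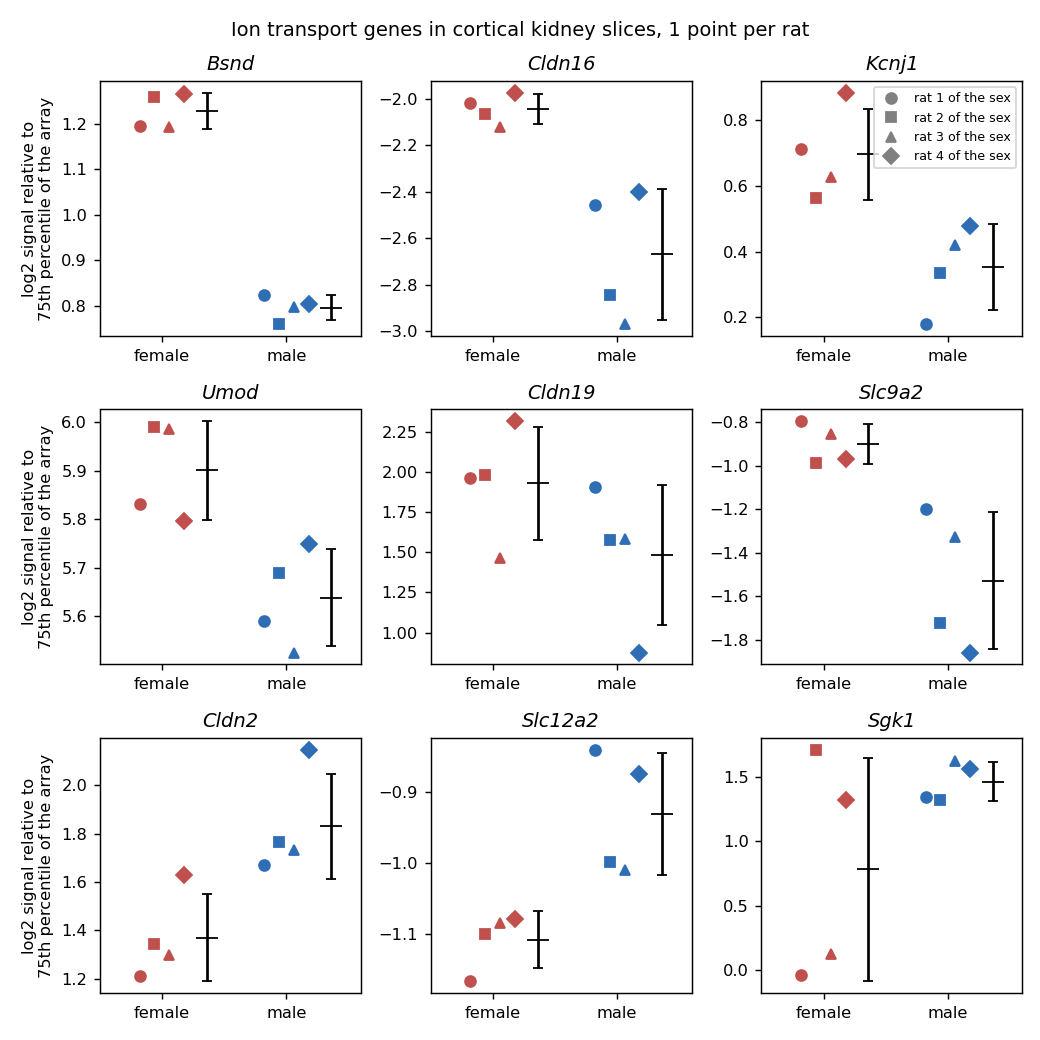
Log2 signal relative to the 75th percentile of the array in each of the 4 females (red) and 4 males (blue), with the mean and SD of each sex in black. The symbol shows the number of the rat within its sex, and the vertical axes differ between genes and do not start at 0. *Bsnd*, *Cldn16*, *Kcnj1*, *Umod* and *Slc9a2* have no overlap with the females above, *Cldn2* and *Slc12a2* have no overlap with the males above, and *Cldn19* and *Sgk1* overlap.

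Of the 3 thick ascending limb markers that are not among the 36 genes, *Egf* and *Casr* were lower in males as well, and *Ptger3* was not. In whole cortex, a smaller number of cells of a type and less mRNA per cell cannot be told apart. Of the 4 thick ascending limb markers with a probe, 3 were higher in every female than in every male: *Egf*, *Casr* and *Umod*. *Umod* is also 1 of the 36 genes. Over all probes, 11% had every female above every male. Only *Egf* of the 3 was called higher in females (-0.38, adjusted p = 0.0301). *Ptger3* went the other way, with overlapping values and a log2 fold-change of 0.40 (adjusted p = 0.207). The linear signals of the 3 markers that are not among the 36 genes, summed relative to the 75th percentile, ran from 19.5 to 22.4 in males and from 24.7 to 28.6 in females, a sum made up almost wholly of *Egf* and *Casr*, to which *Ptger3* adds little. With *Umod* included the sums were 68.4 to 73.2 and 80.2 to 91.6, and after quantile normalization 68.2 to 77.5 and 81.8 to 85.1. The summed markers of the glomerulus (10.5 to 11.0 in males and 12.2 to 13.0 in females), of intercalated cells (18.3 to 20.2 and 20.4 to 26.4) and of the inner medulla (1.9 to 2.47 and 2.51 to 3.52) were also lower in every male. Those of the proximal tubule (163 to 173 and 171 to 194), the principal cell (59.5 to 70.1 and 69.3 to 84.5), the distal convoluted tubule (13.3 to 17.5 and 13.4 to 21.1), endothelium (10.6 to 11.4 and 10.8 to 12.1) and blood (36.5 to 54.5 and 44.2 to 55.7) overlapped, as did the low sums of adipose tissue (0.299 to 0.45 and 0.311 to 0.695) and adrenal gland (0.0359 to 0.0497 and 0.0446 to 0.0594). After quantile normalization the intercalated markers overlapped as well (18.0 to 21.0 and 20.4 to 25.8). An overlapping sum can hide single markers. With the 75th percentile scaling, the proximal tubule marker *Cubn* was called higher in females (-0.59, adjusted p = 0.00452). Every female exceeded every male for *Cubn* and for *Slc5a2* (-0.13, adjusted p = 0.225). *Slc34a1*, *Lrp2*, *Aqp1* and *Slc3a1* of the same list had overlapping values. The part of cell composition in the differences of the single genes was not tested.

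**Figure D3:**
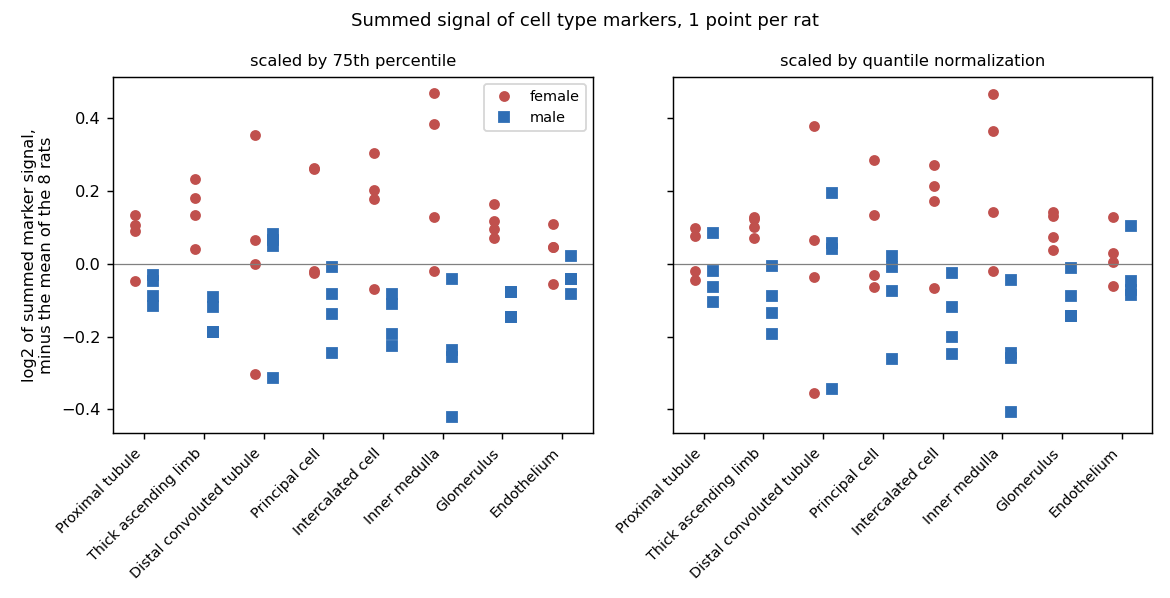
Summed signal of the marker genes of 8 cell types or regions in each female (red circles) and male (blue squares), as log2 minus the mean of the 8 rats, with the 75th percentile scaling on the left and quantile normalization on the right. The thick ascending limb, the inner medulla and the glomerulus show no overlap between the sexes in either panel, and the intercalated cell markers overlap on the right only.

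Among the 5 proximal tubule genes none was called, and all 5 log2 fold-changes were above 0, from 0.0036 to 0.46. *Slc9a3* encodes NHE3, the luminal Na+/H+ exchanger that recovers most filtered bicarbonate. *Slc9a3* read -2.22, -2.76, -1.75 and -2.16 in females 1 to 4 and -2.26, -2.57, -2.12 and -1.94 in males 1 to 4. The males lay within the range of the females, and the means did not differ detectably (log2 fold-change 0.0036, SE 0.22, 95% confidence interval -0.49 to 0.50, adjusted p = 0.994). The second probe of *Slc9a3* gave 0.095 (adjusted p = 0.705). *Cldn2* encodes claudin-2, the cation and water pore between proximal tubule cells. In females 1 to 4 *Cldn2* was at 1.21, 1.34, 1.30 and 1.63, and in males 1 to 4 at 1.67, 1.77, 1.73 and 2.15. Each male exceeded each female, but female 4 came close to the lowest male. The signal was 37.6% higher in males, short of the adjusted threshold (log2 fold-change 0.46, SE 0.13, 95% confidence interval 0.16 to 0.76, adjusted p = 0.0701; exact permutation p = 0.0286). The call depended on the analysis. It passed in 4 of 18 alternatives, among them without female 4 (adjusted p = 0.0468), and the adjusted p ranged from 0.0316 to 0.15. The second *Cldn2* probe gave a log2 fold-change of 0.11 with overlapping values (adjusted p = 0.484). *Slc4a4*, the basolateral Na+-bicarbonate cotransporter, ran from 2.50 to 2.69 in females and from 2.62 to 3.03 in males (log2 fold-change 0.18, SE 0.10, 95% confidence interval -0.053 to 0.42, adjusted p = 0.306), and its second probe gave 0.25 (adjusted p = 0.176). *Cldn10*, which encodes claudin-10 of the proximal tubule and the thick ascending limb, and the potassium channel gene *Kcnj15* differed by 0.020 (adjusted p = 0.943) and 0.056 (adjusted p = 0.74).

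The 4 genes tested in the distal convoluted tubule did not share a direction. *Slc9a2* encodes NHE2, a luminal Na+/H+ exchanger. For *Slc9a2*, females 1 to 4 gave -0.79, -0.99, -0.85 and -0.97 and males 1 to 4 gave -1.20, -1.72, -1.33 and -1.86. Each female exceeded each male, and the males were more widely spread. The signal was 35.2% lower in males (log2 fold-change -0.63, SE 0.15, 95% confidence interval -0.97 to -0.28, adjusted p = 0.041; exact permutation p = 0.0286), with -0.62 and -0.64 in the rows of the slide. The call was not stable: it passed in 9 of 18 alternatives, with adjusted p from 0.0223 to 0.101, and was 0.0591 with the row of the slide as a block. Among the analyses without 1 rat it passed only without male 1, with adjusted p between 0.0544 and 0.101 in the other 7.

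*Slc12a3* encodes the thiazide-sensitive Na+-Cl- cotransporter that defines the segment. The signal of *Slc12a3* was 3.20, 2.72, 3.28 and 3.42 in females 1 to 4 and 3.15, 3.38, 3.40 and 3.42 in males 1 to 4. Female 2 lay below all other rats, and the other 7 rats lay close together. The difference was within the spread (log2 fold-change 0.18, SE 0.15, 95% confidence interval -0.16 to 0.52, adjusted p = 0.498) and was 0.0365 without female 2, and the second probe gave 0.0038 (adjusted p = 0.988). *Kcnj16*, the channel partner of *Kcnj10*, ran from 3.14 to 3.44 in females and from 3.04 to 3.34 in males (-0.12, adjusted p = 0.483). *Slc8a1*, which encodes the Na+/Ca2+ exchanger, gave -0.21 (adjusted p = 0.464; -0.062 without male 1), and both its other probes gave -0.42 (adjusted p = 0.131 and 0.199).

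None of the 5 WNK pathway genes was called. *Wnk4* encodes a kinase that governs the Na+-Cl- cotransporter. *Wnk4* read -4.80, -4.73, -4.86 and -4.80 in females 1 to 4 and -4.93, -4.89, -5.11 and -5.02 in males 1 to 4. The highest male lay just below the lowest female, for a signal 12.2% lower in males (log2 fold-change -0.19, SE 0.072, 95% confidence interval -0.35 to -0.022, adjusted p = 0.151; exact permutation p = 0.0286). With quantile normalization the log2 fold-change was -0.11 (adjusted p = 0.331, within a range of 0.142 to 0.332 over the alternatives). *Stk39*, which encodes the downstream kinase SPAK, ran from 0.15 to 0.68 in females and from -0.01 to 0.24 in males (-0.24, adjusted p = 0.247). *Oxsr1*, the related kinase OSR1, and *Cul3*, the ubiquitin ligase scaffold that with KLHL3 targets WNK kinases for degradation, gave 0.099 (adjusted p = 0.661) and -0.14 (adjusted p = 0.379; -0.059 without male 1). The 2 probes of *Wnk1* gave opposite signs, 0.14 (adjusted p = 0.745) at the brighter and -0.19 (adjusted p = 0.443) at the other.

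The 3 subunits of ENaC, the sodium channel of the connecting tubule and collecting duct, had overlapping values and slightly lower means in males. In females 1 to 4 *Scnn1a* was at -0.63, -0.85, -0.84 and -0.46, and in males 1 to 4 at -0.85, -0.84, -0.99 and -0.80. For *Scnn1b*, females 1 to 4 gave -0.97, -0.54, -1.47 and -0.54 and males 1 to 4 gave -1.15, -1.05, -0.85 and -1.23. The signal of *Scnn1g* was 0.55, 0.62, 0.74 and 0.97 in females 1 to 4 and 0.26, 0.55, 0.74 and 0.48 in males 1 to 4. Female 4 was at or near the top for each subunit. The log2 fold-change was -0.17 for the alpha subunit (SE 0.10, 95% confidence interval -0.41 to 0.060, adjusted p = 0.327), -0.19 for the beta subunit (SE 0.21, 95% confidence interval -0.67 to 0.28, adjusted p = 0.614) and -0.21 for the gamma subunit (SE 0.13, 95% confidence interval -0.51 to 0.084, adjusted p = 0.347), so that each interval held 0 and reached at most -0.67. These values depended on single rats: the beta subunit gave -0.39 without female 3, -0.077 without female 2 and -0.079 without female 4, and without female 4 the alpha and gamma subunits gave -0.095 and -0.13. The other principal cell markers, summed without *Scnn1g*, ran from 58.3 to 68.6 in males and from 67.6 to 82.9 in females. They did not share a direction: *Aqp2* (-0.37, adjusted p = 0.183), *Hsd11b2* (-0.24, adjusted p = 0.0551) and *Avpr2* (-0.32, adjusted p = 0.17) had lower means in males and *Aqp3* a higher one (0.31, adjusted p = 0.243), and the sum rests mainly on *Aqp2* and *Hsd11b2*.

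*Sgk1* encodes the aldosterone- and glucocorticoid-induced kinase that keeps ENaC at the membrane, and it had the largest mean difference in favour of males in the group. *Sgk1* read -0.034, 1.71, 0.13 and 1.32 in females 1 to 4 and 1.35, 1.32, 1.62 and 1.56 in males 1 to 4. Females 1 and 3 lay more than 1 log2 unit below every other rat, whereas females 2 and 4 lay within or above the range of the males. The mean difference was not significant (log2 fold-change 0.68, SE 0.38, 95% confidence interval -0.18 to 1.54, adjusted p = 0.299), and its interval allowed a difference above 2-fold. The spread within the sexes (pooled SD 0.62) was larger than that of 96.5% of all probes. The median over the 31 genes was 0.19, and over all probes 0.16. *Tsc22d3*, another aldosterone- and glucocorticoid-induced gene in the list of other transport genes, did not share this pattern. In females 1 to 4 *Tsc22d3* was at 2.08, 2.02, 1.47 and 1.83, and in males 1 to 4 at 1.44, 1.49, 1.51 and 1.32. Female 1 was the highest rat for *Tsc22d3* and the lowest for *Sgk1*. *Kcnma1*, the pore of the BK potassium channel, gave 0.26 (adjusted p = 0.25) at its brightest probe and -0.23 (adjusted p = 0.161) at another, so that its direction depended on the probe.

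No gene of the intercalated cell and anion exchange set was called. *Slc4a1* encodes AE1, the basolateral chloride/bicarbonate exchanger of type A intercalated cells and of erythrocytes. For *Slc4a1*, females 1 to 4 gave 1.08, 0.36, 0.48 and 0.69 and males 1 to 4 gave 0.71, 0.098, -0.15 and 0.31. Males 2 to 4 lay below every female, while male 1 ranked second among all rats (log2 fold-change -0.41, SE 0.21, 95% confidence interval -0.90 to 0.073, adjusted p = 0.265). *Slc26a4* encodes pendrin, the luminal exchanger of type B intercalated cells. The signal of *Slc26a4* was 0.91, 1.08, 0.58 and 0.83 in females 1 to 4 and 0.078, 0.82, 1.08 and 0.80 in males 1 to 4. Male 1 stood far below the other rats, which were mixed (log2 fold-change -0.16, SE 0.21, 95% confidence interval -0.64 to 0.32, adjusted p = 0.686). Without male 1 the sign turned, to 0.048. *Slc26a7*, a basolateral anion exchanger, ran from -5.12 to -4.72 in females and from -5.51 to -4.85 in males (log2 fold-change -0.38, SE 0.16, 95% confidence interval -0.74 to -0.019, adjusted p = 0.176). *Slc4a2*, the widely expressed exchanger AE2, gave 0.037 (adjusted p = 0.876). The intercalated cell markers other than *Slc4a1* and *Slc26a4*, summed, ran from 15.6 to 17.2 in males and from 17.5 to 23.0 in females.

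*Slc12a2* encodes NKCC1, the basolateral Na+-K+-2Cl- cotransporter of many secretory cells. *Slc12a2* read -1.17, -1.10, -1.09 and -1.08 in females 1 to 4 and -0.84, -0.998, -1.01 and -0.87 in males 1 to 4. Each male exceeded each female by a small margin. The signal was 13.1% higher in males and did not pass the adjusted threshold (log2 fold-change 0.18, SE 0.068, 95% confidence interval 0.022 to 0.33, adjusted p = 0.147; exact permutation p = 0.0286). The second probe gave a difference of 0.27, also without overlap (adjusted p = 0.0695).

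The genes of the sodium pump, which drives transport in all segments, were not called. *Atp1b1* encodes its beta subunit. In females 1 to 4 *Atp1b1* was at 5.88, 6.02, 5.89 and 5.86, and in males 1 to 4 at 5.78, 5.85, 5.77 and 5.83. The females lay just above the males, with a signal 7.23% lower in males (log2 fold-change -0.11, SE 0.065, 95% confidence interval -0.26 to 0.040, adjusted p = 0.335; exact permutation p = 0.0286). This direction rested on the scaling, because the log2 fold-change was 0.0011 after quantile normalization. *Fxyd2*, the gamma subunit, gave -0.031 (adjusted p = 0.841) and, at its second probe, 0.043 (adjusted p = 0.718).

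**Figure D4:**
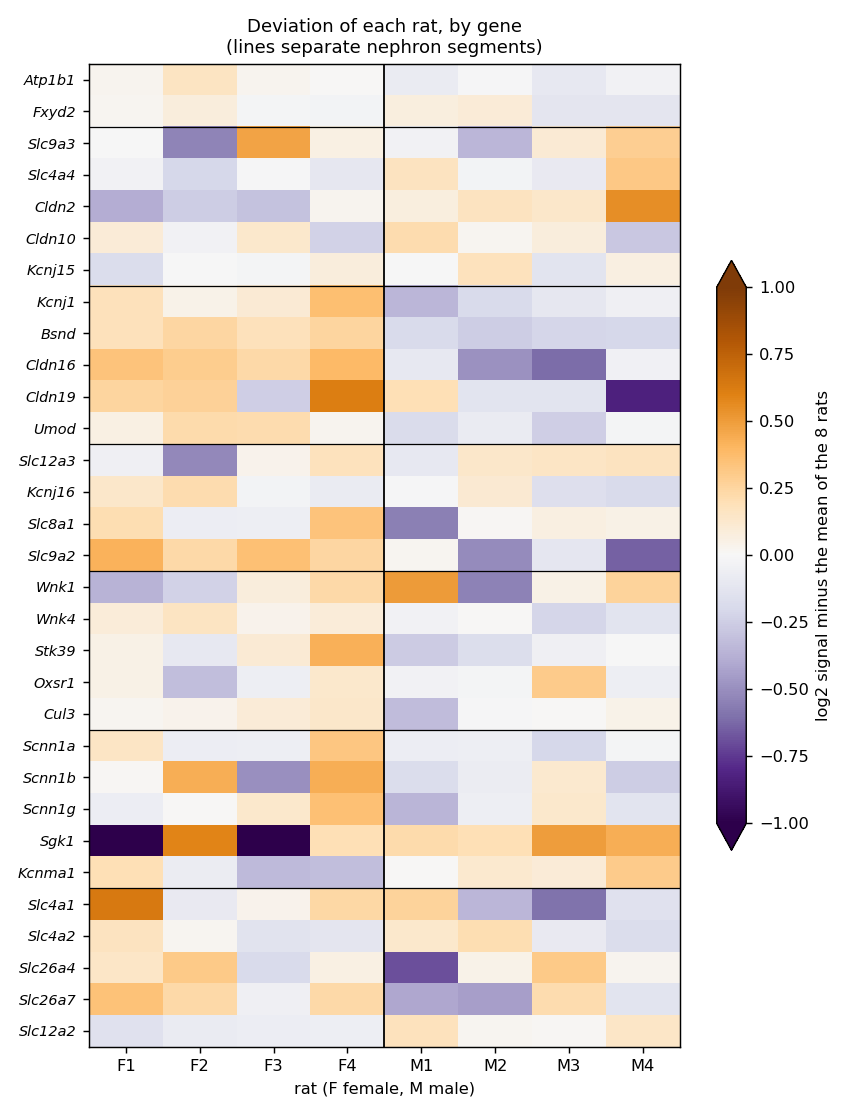
Deviation of each rat from the mean of the 8 rats on the log2 scale, for the 31 genes tested, with females F1 to F4 on the left and males M1 to M4 on the right and lines between the segments. Orange is above and purple below the mean, and the colour scale ends at 1 in either direction. The uniform orange of the females for *Bsnd* and *Cldn16* contrasts with *Sgk1*, for which F1 and F3 are deep purple and F2 is orange.

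A further list of 57 genes of the same pathways was examined (proton pump subunits, carbonic anhydrases, ammonia transporters, other claudins and regulators), which held 50 genes with a named probe and 49 tested. Of these, 7 (14.3%, against 8.06% of all probes) were called, 2 higher in males and 5 higher in females, and the median log2 fold-change was -0.15. Both genes higher in males belong to the SLC26 family of anion exchangers. *Slc26a1*, the basolateral sulfate/oxalate exchanger of the proximal tubule, was 38.9% higher in males. For *Slc26a1*, females 1 to 4 gave 3.49, 3.45, 3.45 and 3.54 and males 1 to 4 gave 4.03, 3.99, 3.84 and 3.96. *Slc26a6*, a luminal chloride/oxalate/bicarbonate exchanger, was 59.3% higher. The signal of *Slc26a6* was -1.54, -1.56, -1.54 and -1.38 in females 1 to 4 and -0.69, -0.73, -1.07 and -0.83 in males 1 to 4. For both, the males lay well above the females. The log2 fold-changes were 0.47 (SE 0.067, 95% confidence interval 0.32 to 0.63, adjusted p = 0.00574) and 0.67 (SE 0.097, 95% confidence interval 0.45 to 0.89, adjusted p = 0.00622), and both were called in 18 of 18 alternatives.

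The 5 genes higher in females came from several segments, and each had no overlap between the sexes. *Kcnk1*, which encodes the potassium channel TWIK-1, differed by -0.75 (SE 0.15, 95% confidence interval -1.09 to -0.40, adjusted p = 0.024). *Kcnk1* read 1.08, 1.24, 0.72 and 0.81 in females 1 to 4 and 0.37, 0.14, -0.080 and 0.43 in males 1 to 4. *Cldn14*, a claudin of the thick ascending limb that lowers cation permeability, was the only gene of the list to pass both thresholds, at -1.58 (SE 0.34, 95% confidence interval -2.34 to -0.81, adjusted p = 0.0275). In females 1 to 4 *Cldn14* was at -5.24, -4.74, -5.34 and -4.65, and in males 1 to 4 at -5.88, -7.41, -6.86 and -6.13. Its difference was -1.01 in the first and -2.14 in the second row of the slide. The signal of *Cldn14* was low, though well above background on all 8 arrays. Over the 18 alternatives its difference ran from -1.805 to -1.149, and it was smallest with normexp background correction. *Rhcg*, the ammonia transporter of the collecting duct, differed by -0.44 (SE 0.095, 95% confidence interval -0.66 to -0.22, adjusted p = 0.0296), and *Atp6v0d2*, a subunit of the proton pump, by -0.42 (SE 0.10, 95% confidence interval -0.65 to -0.18, adjusted p = 0.0438). *Fxyd1*, which encodes phospholemman, a regulator of the sodium pump, differed by -0.42 (SE 0.098, 95% confidence interval -0.65 to -0.20, adjusted p = 0.0372). None of these 5 calls held in every alternative. They passed in 14 of 18 for *Kcnk1*, 12 for *Cldn14*, 10 for *Rhcg*, 9 for *Fxyd1* and 8 for *Atp6v0d2*. Of the 8 analyses without 1 rat, *Kcnk1* passed in 4 (without female 3, female 4, male 1 or male 4), *Cldn14* in 4 (without female 3, male 1, male 2 or male 4) and *Rhcg* in 2 (without female 1 or female 3). *Fxyd1* passed only without male 3 and *Atp6v0d2* only without female 3. *Wnk3* had a probe but was not tested, since it was well above background on too few arrays.

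**Figure D5:**
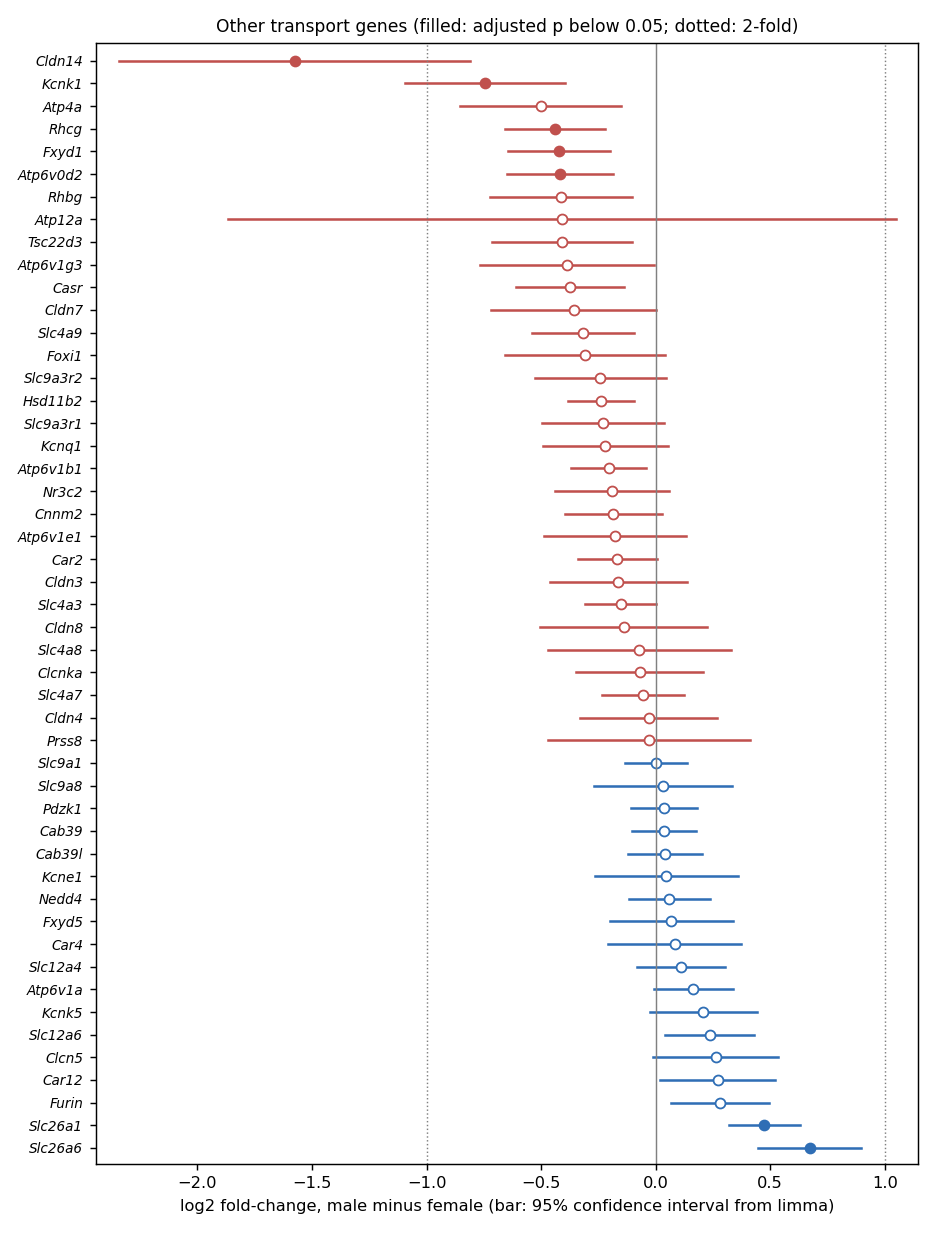
Log2 fold-change, male minus female, of the 49 other transport genes tested, sorted by size, with the 95% confidence interval of limma (4 males and 4 females). Filled points have an adjusted p below 0.05, red lies below 0 and blue above 0. *Cldn14* lies at -1.58 at one end, and *Slc26a1* (0.47) and *Slc26a6* (0.67) lie at the other.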

How the data were processed

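Total RNA of cortical kidney slices from 4 male and 4 female rats was measured on 8 one-colour Agilent SurePrint G3 Rat arrays. Spot intensities deposited by the authors came from Feature Extraction 10.7.3.1, background-subtracted and spatially detrended per the file headers, with no normalization between arrays. The authors also deposited log2 values, which were quantile-normalized (all arrays have 1 distribution), and the submitters' processing notes name limma 3.8.2. Samples were grouped by sex from their labels.

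Outlier spots were left out, log2 of the intensity was taken without a pseudocount, each array was centred on the 75th percentile of its non-control spots, and repeated spots of 1 probe were averaged. A probe counted as well above background on an array when more than 0.5 of its spots did. Probes so detected on at least 4 of 8 arrays were fitted with limma 3.58.1 in R 4.3.3 (lmFit and eBayes, male minus female, no covariate), with Benjamini-Hochberg adjustment over 23425 probes and a threshold of 0.05. For single genes a two-sided exact permutation test over 70 assignments was added. The fit was tested on simulated data. Precision is limited by having 4 rats of each sex.

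Of 30367 probes, 17514 were named by their RefSeq accession, and the others were not used for gene names here. Probe positions were not analysed here. The 36 genes, the other transport genes, the marker lists and the promoter motifs were chosen with earlier results of these data known, and 2 genes of the other transport and marker lists are not reported here. All 36 are named or counted. Genes that were called, did not overlap between the sexes or define a segment are given rat by rat, *Sgk1*, *Cldn19* and *Tsc22d3* were added after their values were seen, and of the other transport genes those called are named, with further ones among the other observations named after their values were seen. The 18 alternatives were the authors' log2 values, quantile normalization, detection on all 8 arrays, no filter on dim probes, outlier spots kept, normexp background correction (offset 16, on the median spot signal, in place of the mean spot signal), an intensity trend with a robust prior, the replicate number as a block, the row of the slide as a block, the mean of the probes of a gene, and each array left out. Figures were drawn with Python 3.11.15 and matplotlib 3.10.9.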

Additional observations from a re-analysis of the deposited data

Results flagged for a closer look

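In 6 of the 76 groups of 4 rats examined (31 genes of the group and 7 called genes of the other list, in each sex), 1 rat stood far from the other 3 of its sex. By chance alone about 1 group in 20 would do so, or 3.8 of the 76. Male 1 was low for 3 genes. Its log2 signal of *Slc12a3*, the Na+-Cl- cotransporter, was 3.15, against 3.38 to 3.42 in the other males. For *Slc8a1*, the Na+/Ca2+ exchanger, it was -4.40, against -3.84 to -3.78. For *Cul3* it was -2.23, against -1.92 to -1.87. Male 3 was high for *Oxsr1*, at 0.32 against -0.042 to -0.0037. Female 4 was high for *Slc26a6*, at -1.38 against -1.56 to -1.54, and still lay below each male. Female 3 was low for *Atp6v0d2*, at 1.62 against 1.93 to 1.99, and still lay above each male. The 3 genes called in the group, *Bsnd*, *Cldn16* and *Slc9a2*, had no such rat.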

How the results depend on the processing

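For 38 genes (the 31 of the group and the 7 called among the other transport genes) and 18 alternatives, 606 of 684 log2 fold-changes kept their direction and their side of the threshold, 53 lost the call, 6 gained it and 19 changed sign. Under the detection filters, the intensity trend and the blocks only the adjusted p could change, because these leave the log2 fold-change as it is. The genes whose sign changed were not called. The cause of the changes was not tested, except that fewer rats or more probes enter some analyses by construction. The number higher in females among the 31 genes was 3, and it was 1 with no filter on dim probes, 5 with an intensity trend and a robust prior, and 1 to 3 without 1 rat. It was 1 without any of females 1 to 4, male 2 or male 3. The number higher in males was 0, and it was 1 (*Cldn2*) with normexp background correction, with the intensity trend and with the replicate block, and 0 to 1 without 1 rat (1 without female 4). Among the other transport genes, 5 were higher in females, 1 with no filter on dim probes, 1 with the replicate block, and 0 to 5 without 1 rat (0 without female 2, 1 without female 1, female 4 or male 2, 2 without male 1, male 3 or male 4). The 2 higher in males were 2 under each alternative run. The count of the 31 genes past both thresholds stayed at 0.

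The log2 fold-change of *Atp1b1* turned to 0.0011 with quantile normalization and 0.0012 with the authors' log2 values. That of *Fxyd2* turned to 0.054, 0.065 and, with the mean of its probes, 0.0057, and ran from -0.070 to 0.0030 without 1 rat. *Wnk1* turned to -0.026 with the mean of its probes. Without 1 rat, *Wnk1* ran from -0.0036 to 0.35, *Slc9a3* from -0.17 to 0.16, *Cldn10* from -0.055 to 0.12, *Slc4a2* from -0.027 to 0.10 and *Slc26a4* from -0.29 to 0.048. Among uncalled genes that kept their sign, *Sgk1* fell to 0.41 without female 1, *Slc4a1* went to -0.27 without female 1, *Cldn19* to -0.24 without male 4, *Stk39* to -0.14 without female 4, *Slc4a4* to 0.11 without male 4, *Kcnj16* to -0.073 without female 2, *Oxsr1* to 0.0095 without female 2 and *Kcnj15* to 0.0066 without female 1.

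Whether the replicate numbers pair the rats was not settled. The correlation of same-numbered deviations was low, at 0.125, 0.043, -0.008 and 0.117, but 5 of 8 arrays were closest to their own number. With the replicate block, 1030 of all probes were called in place of 1889, and of the 31 genes 1 was then called for males and 3 for females. With the trend and robust prior 2466 probes were called, with no filter on dim probes 1194, and without 1 rat 1012 to 1544. The scaling moved the share of calls higher in males from 42.1% to 54.5% (quantile normalization) and 54.6% (the authors' log2 values). Signal over background limits *Kcnj10* and *Wnk3*, which were detected on too few arrays.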

Other observations

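Of the 49 other transport genes tested, 32.7% had non-overlapping values, called genes included, against 18.5% of all probes. The females lay above for 12 genes and the males for 4. Those without a call are given here and in the next paragraph. *Hsd11b2*, the enzyme that shields the mineralocorticoid receptor from glucocorticoids, differed by -0.24 on the log2 scale (male minus female) (limma adjusted p = 0.0551), and *Casr*, the calcium-sensing receptor, -0.37 (adjusted p = 0.0642). *Slc4a9*, an anion exchanger of type B intercalated cells, gave -0.32 (adjusted p = 0.0853), and *Atp4a*, the gastric-type proton pump, -0.50 (adjusted p = 0.085), though its second probe gave 0.025 with overlapping values (adjusted p = 0.961). *Slc4a3* and *Cnnm2* gave -0.15 (adjusted p = 0.201) and -0.18 (adjusted p = 0.251). In the opposite direction, *Car12*, a membrane-bound carbonic anhydrase, gave 0.27 (adjusted p = 0.167), and *Furin*, a protease that activates ENaC, gave 0.28 (adjusted p = 0.107).

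The subunits of the proton pump did not share a direction. *Atp6v1g3* gave -0.39 (adjusted p = 0.186), *Atp6v1b1* -0.21 without overlap (adjusted p = 0.116) and *Atp6v1e1* -0.18 (adjusted p = 0.461). *Atp6v1a* gave 0.16 (adjusted p = 0.214) and, at its second probe, 0.32 (adjusted p = 0.11). The called *Atp6v0d2* was at -0.42 (adjusted p = 0.0438). *Rhbg*, the basolateral ammonia transporter, gave -0.41 with overlapping values (adjusted p = 0.104).

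For *Atp12a*, the colonic-type proton pump, female 2 read -1.88, while the other females read -3.60, -4.99 and -4.76 and the males -4.69 to -3.60. The log2 fold-change of -0.41 had an interval of -1.87 to 1.05 (adjusted p = 0.73).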
